A study of Mus musculus with 4 samples.

Results

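The insulin-like growth factor 1 (IGF1) axis was followed through 10 genes: the ligand *Igf1*, the receptors *Igf1r* and *Igf2r*, the binding proteins *Igfbp2*, *Igfbp3*, *Igfbp4*, *Igfbp5*, *Igfbp6* and *Igfbp7*, and the protease *Pappa*. They were taken by symbol from the gene table of the deposited counts, where they are 10 of 32285 genes, and each symbol matched a single gene. The counts came from 4 single-cell RNA sequencing libraries of tibial muscle from *Nse-Bmp4* mice on C57BL/6, aged 6 to 8 weeks, in which the promoter of neuron-specific enolase drives *Bmp4* and heterotopic ossification (HO), the formation of cartilage and bone in soft tissue, follows muscle injury. One library was made from uninjured muscle (Uninjured), and the others 1, 3 or 7 days (dpi) after injection of cardiotoxin, a snake venom toxin that destroys muscle fibres. All 4 groups carry the transgene, so the comparisons describe injury within this genotype. Each library pooled 3 muscles and each group was a single library, so a time point cannot be told apart from its library, and no test between groups was possible.

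IGF1 is a secreted growth factor that signals through the IGF1 receptor tyrosine kinase (*Igf1r*) and is a known driver of muscle growth and of the growth of cartilage and bone. The product of *Igf2r* binds IGF2 and carries it to the lysosome, and it also sorts enzymes that bear mannose 6-phosphate. Most IGF in tissue is held by binding proteins, of which IGFBP6 prefers IGF2 and IGFBP7 binds IGFs only weakly, and the metalloprotease pregnancy-associated plasma protein A (*Pappa*) cuts IGFBP4 and IGFBP5 and so frees the ligand.

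The deposited values were unique molecular identifier (UMI) counts, which count captured transcripts, in 11722 to 23752 barcodes a library with 91146335 to 129007669 UMIs in all. Median UMIs per barcode ran from 8629 in Uninjured down to 3083 at 7 dpi, and pairs of libraries shared 30 to 95 barcodes. Cells were placed in classes by the share of marker genes detected. Levels are given as CPM, the number of UMIs of a gene per 1000000 UMIs, after adding up all cells that a class had in a library. A difference is counted when it was at least 2-fold and the higher library held at least 100 UMIs, and the share of all genes that met the same rule is given beside each count. Counts under alternative runs are given without that share. Intervals are exact 95% intervals, and they cover counting error only.

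Mesenchymal (MSC lineage) cells, gated on genes such as *Pdgfra*, *Prrx1*, *Dcn* and *Col1a1* with no UMI of the leukocyte gene *Ptprc*, numbered 8370, 3633, 6226 and 10559 in the order of time, and their median depth was 9149, 7937, 5524 and 3374 UMIs. All 8 of their markers were detected in each library, but these markers also made the gate, so this is no separate check. They made up 81.2% of the cells kept in Uninjured and 37.7, 49.4 and 52.0% of those at 1, 3 and 7 dpi. Cells that met no gate were 3.23, 9.19, 16.3 and 19.7% of the libraries, and their share was higher in the libraries of lower depth. Muscle fibres are too large for droplets, and the muscle lineage was present as satellite cells (162, 97, 200 and 136 cells) and, in lower number, myoblasts (28, 44 and 74 cells in Uninjured and at 3 and 7 dpi).

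MSC lineage cells held over 50% of the UMIs of every member in every library, except *Igf1r* at 1 dpi and *Igfbp2* at 3 dpi. For *Igf1* the share of the library's UMIs in these cells was 98.5, 88.4, 92.2 and 80.0%, for *Igfbp6* 98.9, 89.5, 92.8 and 81.7% and for *Pappa* 98.7, 88.5, 91.2 and 73.7%. MSC lineage cells held 91.1, 49.5, 65.0 and 58.2% of *Igf1r*, and at 1 dpi neutrophils held 17.8% and granulocyte progenitors 9.0%. These shares follow the number of cells captured in each class as well as the level per cell.

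**Figure D1:**
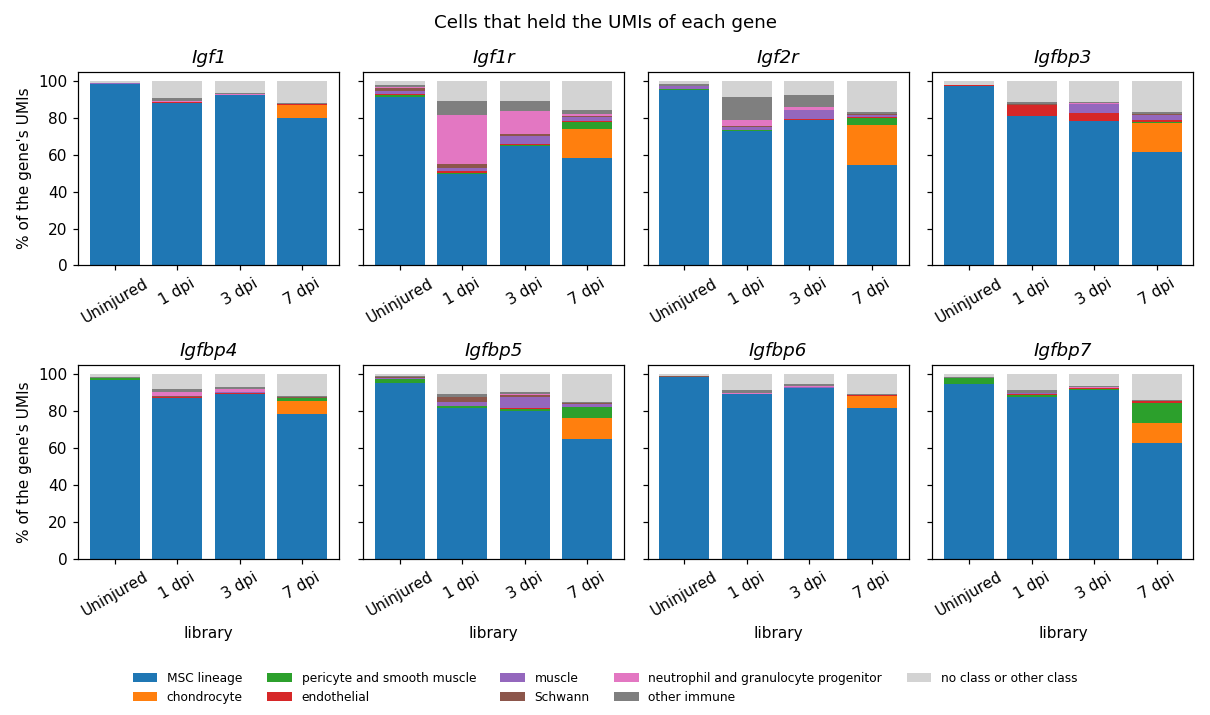
Share of each gene's UMIs (y axis, %) held by the cells of each class, for 8 of the 10 genes in the 4 libraries (x axis); every bar adds to 100% and the light grey part is cells without a class or of classes not drawn. MSC lineage cells held 98.5% of *Igf1* UMIs in Uninjured, whereas at 1 dpi they held 49.5% of *Igf1r* UMIs.

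The ligand *Igf1* (ENSMUSG00000020053, chromosome 10, 87858265 to 87937042, forward strand, mouse GRCm38) was higher at 7 dpi than in the earlier libraries within MSC lineage cells. Its level from Uninjured to 7 dpi was 444, 342, 464 and 902 CPM. The 7 dpi library stood 2.03-fold above Uninjured (95% interval 2.01 to 2.06), and the steps between successive libraries stayed under 2-fold, at 0.770, 1.36 and 1.95. The share of MSC lineage cells with an *Igf1* UMI was 76.6% in Uninjured and 73.9% at 7 dpi. Cells were also thinned to 1000 UMIs each, which gives them the same depth. Cells under 1000 UMIs were left out of all thinned values, here 0, 9, 262 and 729 MSC lineage cells, and the gates were set before thinning. After thinning the shares were 29.9, 24.9, 31.2 and 46.9% in the order of time. B cells, which should lack *Igf1*, had a UMI in 2.17% of cells in Uninjured (median depth 2430.0 UMIs against 9149) and in 3.90% at 7 dpi (median 1463 against 3374).

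Within the MSC lineage, *Igf1* differed between states that were gated on other genes. Cells with adventitial genes (*Pi16* state, 3022, 853, 998 and 595 cells) held 178, 186, 322 and 693 CPM of *Igf1*, while interstitial cells with *Smoc2* and *Col15a1* (4436, 2069, 2738 and 1537 cells) held 622, 401, 545 and 1219 CPM. The interstitial state was therefore higher in each of the 4 libraries, by 3.48-fold in Uninjured (95% interval 3.38 to 3.59), 2.16-fold at 1 dpi, 1.69-fold at 3 dpi and 1.76-fold at 7 dpi. Between 3 and 7 dpi the level was higher by 2.15-fold in the *Pi16* state (2.04 to 2.27) and by 2.24-fold in the interstitial state (2.18 to 2.30). Tenocyte-like cells, gated on tendon genes such as *Tnmd*, had 613, 1202 and 1007 CPM, without a value at 1 dpi, and the state with *C7* and *Gdf10* had 712, 737 and 658 CPM, without one at 7 dpi. Both stood above the *Pi16* state in all libraries where they had at least 50 cells.

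Outside the mesenchyme *Igf1* was lower, and there free RNA from lysed cells can give UMIs in cells that do not express a gene. The level that free RNA would give was estimated from *Col3a1*, a fibroblast collagen gene, as the *Igf1* level of a class whose *Col3a1* and *Igf1* UMIs both came from the average RNA of the library. All *Col3a1* of a class is taken as free RNA, so the estimate is too high for a class that makes *Col3a1* itself. A value under 1 therefore does not show that a level was free RNA. Macrophages, gated on *C1qa* and related genes, had 44.7, 12.9, 50.2 and 106 CPM of *Igf1*, which was 2.53, 3.28, 5.41 and 2.76 times that estimate. Classical monocytes had 3.11, 11.3, 5.08 and 45.1 CPM, or 0.697, 3.30, 0.572 and 1.29 times the estimate. B cells lay at 0.692, 0.859, 1.14 and 0.232 times it and NK cells at 0, 0.678, 0.833 and 0.436 times it. At 3 dpi *Igf1* was thus 50.2 CPM (95% interval 41.5 to 60.2, 442 cells) in macrophages and 5.08 CPM (1.38 to 13.0, 166 cells) in classical monocytes, with intervals that did not overlap. The 5 macrophages with most *Igf1* held 69.0% of its UMIs in Uninjured and 21.4% at 3 dpi. Satellite cells, the stem cells of muscle, had 87.7, 95.9, 20.3 and 192 CPM of *Igf1*, or 2.33, 1.68, 0.827 and 2.55 times the estimate. At 7 dpi blood endothelial cells had 277 CPM of *Igf1*, but 5 of 78 cells held 67.0% of it and the level was 1.39 times the estimate.

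**Figure D2:**
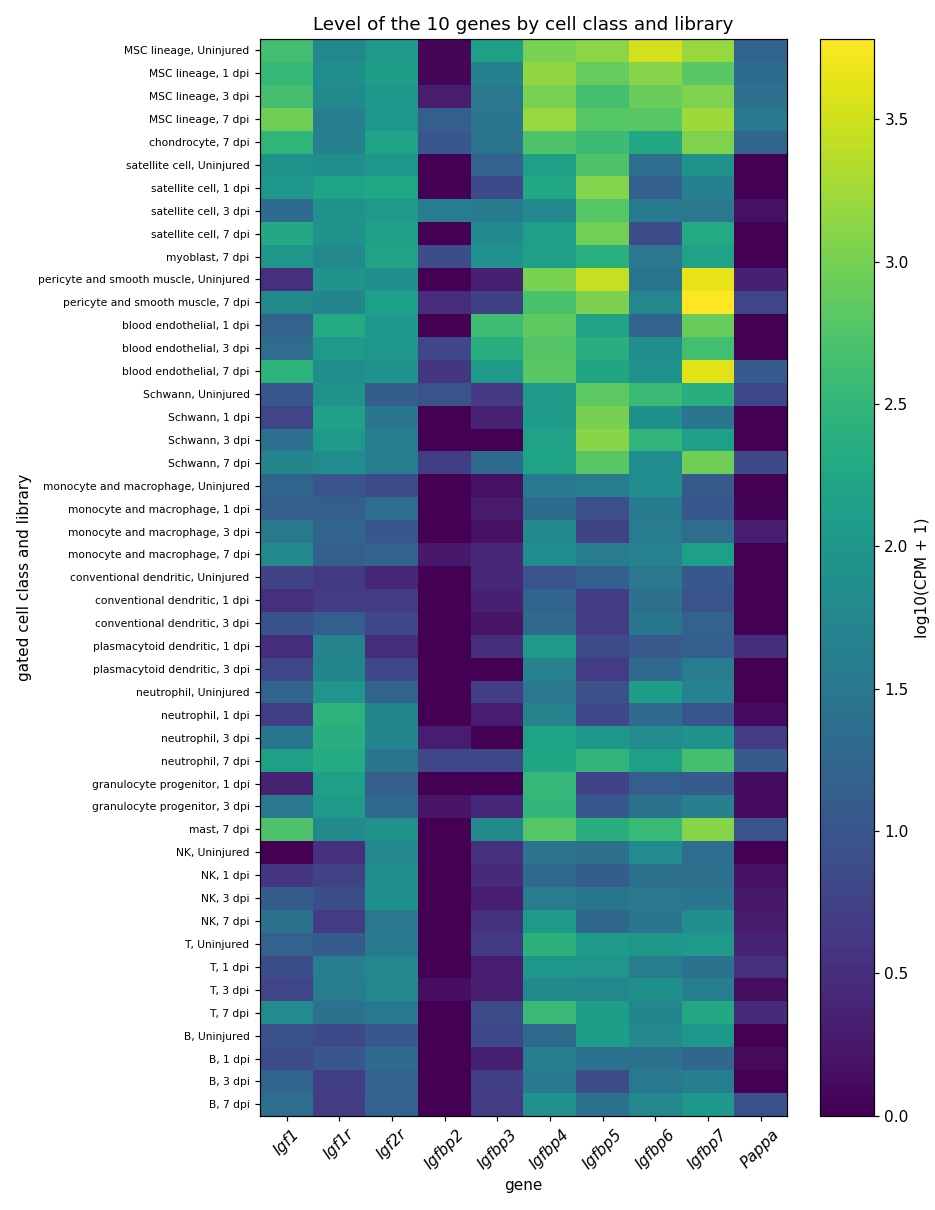
Level of each gene as log10(CPM + 1) (colour) in each gated class and library with at least 50 cells (rows), for the 10 genes (columns). The MSC lineage rows are bright for *Igf1*, *Igfbp4*, *Igfbp5*, *Igfbp6* and *Igfbp7*, while *Igf1r* is brightest in neutrophils and *Igfbp7* in pericytes and smooth muscle.

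*Igf1r* (ENSMUSG00000005533, chromosome 7, 67952827 to 68233668, forward strand) had its highest level in neutrophils in each of the 4 libraries, among classes with at least 50 cells. Smaller classes were not ranked. Neutrophils, which numbered 53, 515, 334 and 103, held 92.4, 274, 243 and 212 CPM in the same order. The neutrophil interval lay apart from that of the class ranked next at 3 dpi (215 to 274 CPM) and 7 dpi (150.2 to 291 CPM), but it overlapped with that of pericytes and smooth muscle in Uninjured and with that of blood endothelial cells at 1 dpi. At 1 dpi 65.4% of neutrophils carried an *Igf1r* UMI (22.9% after thinning, median 4464 UMIs) against 2.16% of B cells (0.927% after thinning, median 2860.0 UMIs). The measured level in neutrophils was 48.2, 148, 30.2 and 31.7 times the free RNA estimate. The 5 neutrophils with most *Igf1r* held 5.78% of its UMIs at 1 dpi and 7.55% at 3 dpi, whereas in Uninjured, with 53 neutrophils, they held 12 of 24 UMIs. In neutrophils 1 dpi stood 2.97-fold above Uninjured (95% interval 1.98 to 4.66), in a comparison in which 2 of 3 members tested (*Igf1r* and *Igf2r*) and 33.1% of all genes tested were at least 2-fold higher and the median log2 ratio of all genes was 0.68.

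Granulocyte progenitors, gated on *Elane*, *Mpo* and related genes, had 141 and 113 CPM of *Igf1r* at 1 and 3 dpi, below neutrophils in both libraries. Among immune cells, monocytes and macrophages held 8.78, 13.0, 16.1 and 12.3 CPM, T cells 11.6, 40.3, 39.7 and 24.4 CPM and NK cells 2.40, 4.37, 7.05 and 3.48 CPM. These 3 groups of leukocytes stood below neutrophils and progenitors in each library where all were present. Schwann cells, which wrap axons, had 87.4, 144, 108 and 67.3 CPM, satellite cells 75.0, 155, 85.0 and 84.8 CPM and blood endothelial cells 202, 108 and 76.5 CPM at 1, 3 and 7 dpi. Each of these classes was highest at 1 dpi, and MSC lineage cells were too, at 57.4, 75.3, 62.2 and 41.7 CPM. The 1 dpi interval of satellite cells (122 to 193 CPM) and of endothelial cells (151 to 264 CPM) lay above that at 3 dpi, while that of Schwann cells overlapped with it. In MSC lineage cells no step of *Igf1r* reached 2-fold, with ratios of 1.31, 0.826 and 0.670.

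*Igf2r* (ENSMUSG00000023830, chromosome 17, 12682406 to 12769664, reverse strand) varied little across the mesenchyme, at 111, 129, 103 and 96.5 CPM in MSC lineage cells. At 7 dpi it was 149 CPM (95% interval 142 to 155) in chondrocytes against 96.5 CPM (94.0 to 99.0) in MSC lineage cells, a ratio of 1.54. Satellite cells had 96.4, 178, 111 and 133 CPM, with an interval above MSC lineage cells at 1 dpi and 7 dpi. Myoblasts, which passed the minimum of 50 cells at 7 dpi alone, had 153 CPM there (118 to 195), the highest of the classes in that library, with an interval that overlapped with that of chondrocytes. NK and T cells also carried it, with 57.6, 70.4, 78.7 and 31.3 CPM in NK cells and 35.5, 57.7, 57.5 and 32.9 CPM in T cells, against 9.73, 20.3, 14.6 and 14.7 CPM in B cells. At 1 dpi 29.1% of NK cells carried a UMI (median 4546 UMIs) against 6.16% of B cells (median 2860.0), or 6.65% against 2.39% after thinning. The level was 27.1, 35.7, 20.5 and 3.32 times the free RNA estimate in NK cells, and it was lower at 7 dpi than at 3 dpi by 2.51-fold (1.76 to 3.68) in NK cells. For that step 7.25% of all genes tested in NK cells were at least 2-fold lower and 0.802% higher, with a median log2 ratio of -0.31.

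Of the 9 members tested in MSC lineage cells between Uninjured and 1 dpi, 3 were at least 2-fold lower at 1 dpi (*Igfbp3*, *Igfbp6* and *Igfbp7*) and 0 were higher, where 3.78% of the 11788 genes tested were lower and 5.43% higher. The median log2 ratio of the 9 members was -0.38, and that of all genes tested was 0.14. *Igfbp2* had too few UMIs. Between 1 and 3 dpi 0 of 9 members passed 2-fold in either direction (9.65% of all genes), and between 3 and 7 dpi 1 of 10 did, *Igfbp2*, which was higher (14.3% of all genes in either direction). From Uninjured to 7 dpi 3 of 10 were higher (*Igf1*, *Igfbp2* and *Pappa*) and 3 lower (*Igfbp3*, *Igfbp5* and *Igfbp6*), where 13.7% of genes were higher and 10.6% lower. These comparisons share libraries, and so are not independent of each other.

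*Igfbp3* (ENSMUSG00000020427, chromosome 11, 7206086 to 7213923, reverse strand), the main IGF carrier of blood, was at 138, 44.5, 31.7 and 29.1 CPM in MSC lineage cells. The level in Uninjured was 3.11-fold that at 1 dpi (95% interval 2.94 to 3.29). After thinning 5.81, 2.57, 3.34 and 2.71% of the cells had a UMI. By state it was highest in cells with *C7* and *Gdf10*, at 663, 171 and 61.8 CPM before 7 dpi, where the 5 highest cells held 31.6, 67.8 and 70.6% of the UMIs. At 3 dpi the *Pi16* state was close, at 54.6 CPM, and the order of these states there was not tested. The *Pi16* state held 108, 26.1, 54.6 and 20.1 CPM and the interstitial state 99.5, 42.9, 32.9 and 39.9 CPM. In both of these large states it was lower at 1 dpi, by 4.13-fold (3.59 to 4.78) and 2.32-fold (2.14 to 2.51). Blood endothelial cells had 407, 233 and 109 CPM at 1, 3 and 7 dpi, above MSC lineage cells in each of these libraries, from 58, 114 and 78 cells, of which the 5 highest held 57.0, 40.9 and 54.1% of the UMIs.

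*Igfbp6* (ENSMUSG00000023046, chromosome 15, 102144362 to 102149511, forward strand) was lower in each later library, with 3335, 1259.9, 835 and 622 CPM in MSC lineage cells. Uninjured was 2.65-fold above 1 dpi (2.62 to 2.67) and 5.36-fold above 7 dpi (5.30 to 5.42). After thinning, the share of cells with a UMI was 80.7, 62.3, 51.5 and 35.5%, against 3.26, 1.93, 3.24 and 2.74% of B cells (median depths before thinning 9149, 7937, 5524 and 3374 and 2430.0, 2860.0, 1802 and 1463 UMIs). The *Pi16* state held 5668, 2129, 2005 and 1767 CPM and the interstitial state 1625, 924, 776 and 839 CPM, so the level was lower in the injured libraries within both states. The *Pi16* state was also a smaller part of the MSC lineage cells after injury, at 3022 of 8370, 853 of 3633, 998 of 6226 and 595 of 10559. These totals include cells that met no state gate, which needs 3 detected markers. The *Pi16* cells had a median depth of 9640, 8646, 5236.5 and 5968 UMIs, against 9149, 7937, 5524 and 3374 UMIs in all MSC lineage cells. The part of depth in these shares was not tested. Nor was the part of the shares in the *Igfbp6* difference over all MSC lineage cells.

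*Igfbp7* (ENSMUSG00000036256, chromosome 5, 77349240 to 77408041, reverse strand), also called angiomodulin, was lowest at 1 dpi and higher again in the later libraries. MSC lineage cells held 1597, 653, 1131 and 1708 CPM, so 1 dpi was 2.44-fold below Uninjured (2.41 to 2.48) and 7 dpi was 1.07 times Uninjured (1.06 to 1.08). Both large states were lowest at 1 dpi, with 2363, 815, 1424 and 2472 CPM in the interstitial state and 427, 282, 656 and 1283 CPM in the *Pi16* state. At 7 dpi the *Pi16* state stood 3.01-fold above its Uninjured level (2.91 to 3.10), whereas the interstitial state was near its own.

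The promoters of these 3 members that were lower together at 1 dpi are printed from RefSeq (mouse GRCm38.p6), each 300 bases on the strand of the gene, from 250 before the transcript start, to show what sequence lies at their starts. Capitals mark a GC box (GGGCGG) or a TATA box (TATAAA) on either strand. The lines are *Igfbp3* at chr11:7213874-7214173 (reverse strand), *Igfbp6* at chr15:102143936-102144235 (forward strand) and *Igfbp7* at chr5:77407996-77408295 (reverse strand).
Igfbp3: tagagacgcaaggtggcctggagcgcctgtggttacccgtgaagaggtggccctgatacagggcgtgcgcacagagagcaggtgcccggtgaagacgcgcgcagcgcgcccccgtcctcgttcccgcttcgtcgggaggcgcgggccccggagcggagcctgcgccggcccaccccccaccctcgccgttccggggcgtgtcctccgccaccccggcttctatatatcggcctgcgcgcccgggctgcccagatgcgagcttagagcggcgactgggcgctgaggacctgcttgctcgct
Igfbp6: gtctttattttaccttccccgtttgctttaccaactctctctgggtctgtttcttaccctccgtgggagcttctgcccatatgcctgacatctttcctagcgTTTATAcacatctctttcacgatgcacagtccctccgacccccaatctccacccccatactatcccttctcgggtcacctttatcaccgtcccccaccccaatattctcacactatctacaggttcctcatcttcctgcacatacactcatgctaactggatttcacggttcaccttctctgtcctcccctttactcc
Igfbp7: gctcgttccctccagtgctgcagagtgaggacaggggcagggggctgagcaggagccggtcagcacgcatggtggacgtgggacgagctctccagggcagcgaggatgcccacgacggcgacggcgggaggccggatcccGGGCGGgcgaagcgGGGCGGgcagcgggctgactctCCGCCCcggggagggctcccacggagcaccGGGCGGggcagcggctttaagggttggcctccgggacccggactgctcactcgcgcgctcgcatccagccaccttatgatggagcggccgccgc
The *Igfbp7* window held 4 GC boxes at 73.3% G and C, the *Igfbp6* window 1 match to TATAAA, read on the other strand, at 49.7%, and the *Igfbp3* window neither exact pattern at 71.7%. Only exact letters were counted, so the tatatat of the *Igfbp3* window was not. The distance of a match from the transcript start was not used. Over all 32851 promoter windows of this length the median was 52.7% G and C, 35.7% of windows held a GC box and 13.6% a TATA box. GGCGCC, a letter pattern of some BMP-responsive elements, and the AP-1 pattern TGACTCA were in 11.9% and 5.20% of all windows and in 0 of these 3. Windows were found for 9 of the 10 members, and the RefSeq start of *Igfbp6* lies upstream of the start in the annotation of the counts. Such matches describe the letters and do not show that a factor binds.

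*Igfbp4* (ENSMUSG00000017493, chromosome 11, 99041244 to 99054392, forward strand) stayed high throughout, at 1046, 1414, 1068 and 1561 CPM in MSC lineage cells. Its steps were all under 2-fold, with ratios of 1.35, 0.755 and 1.46 between successive libraries. The interstitial state reached 2584 CPM at 7 dpi, 2.11-fold above its level at 3 dpi (2.07 to 2.15), while the *Pi16* state was at 1309.5 CPM against 1390.1 CPM. T cells had 264, 99.9, 61.2 and 358 CPM, of which the Uninjured level was 12.4 times the free RNA estimate and was carried by 149 of 368 cells (40.5%, median 3596 UMIs), against 4.89% of B cells (median 2430.0 UMIs). At 7 dpi the T cell level was 3.27 times the estimate, and 5 T cells held 43.8% of the UMIs. Granulocyte progenitors had 331 and 318 CPM at 1 and 3 dpi, and 98.0% of them carried a UMI at 1 dpi (median 22886 UMIs) against 9.47% of B cells (median 2860.0 UMIs), or 28.9% against 2.63% after thinning.

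*Igfbp5* (ENSMUSG00000026185, chromosome 1, 72857932 to 72874884, reverse strand) lies next to *Igfbp2* on chromosome 1, with 5457 bases between their ends. It was at 1353, 774, 468 and 604 CPM in MSC lineage cells, 1.75-fold lower at 1 dpi than in Uninjured (1.72 to 1.77) and 2.89-fold lower at 3 dpi (2.85 to 2.93). The *Pi16* state held 3179, 2205, 1975 and 1766 CPM, and the interstitial state held 189, 194, 152 and 649.6 CPM. The ratio between them was 16.9 in Uninjured (95% interval 16.5 to 17.3), 11.4 at 1 dpi and 13.0 at 3 dpi, and it was 2.72 at 7 dpi (2.63 to 2.81), where the interstitial state stood 4.27-fold above 3 dpi. Satellite cells held 559, 1205, 624 and 959 CPM and Schwann cells 673, 1023, 1280.0 and 647 CPM, which was 4.71, 8.62, 21.9 and 15.6 and 9.43, 41.3, 48.6 and 6.76 times the free RNA estimate. Both classes were above MSC lineage cells at 1 and 3 dpi. In satellite cells *Igfbp5* was the 1 member with enough UMIs to test between Uninjured and 1 dpi and was 2.16-fold higher (1.92 to 2.42), where 8.15% of all genes were higher.

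By state, some members tested were higher in the *Pi16* state, some were higher in the interstitial state and the rest stayed under 2-fold. In Uninjured 9 members were tested between the 2 states, of which *Igfbp5* and *Igfbp6* were higher in the *Pi16* state and *Igf1*, *Igfbp7* and *Pappa* were lower, with 5.33% of all genes higher and 9.79% lower. At 1 dpi the same 5 genes passed 2-fold in the same directions (3.75% and 6.99% of all genes). At 3 dpi *Igf1* was under 2-fold and the other 4 passed (2.99% and 5.34%), and at 7 dpi only *Igfbp5* and *Igfbp6* did, both higher (2.36% of genes higher, 4.85% lower). Between 3 and 7 dpi 3 of 9 members were higher in the interstitial state, *Igf1*, *Igfbp4* and *Igfbp5*, and 0 lower (3.25% and 4.22% of all genes), while in the *Pi16* state 1 of 8 was higher, *Igf1*, and 1 lower, *Igfbp3* (2.82% and 5.24%). None of the 10 members belongs to the marker lists that gated the states or the classes.

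**Figure D3:**
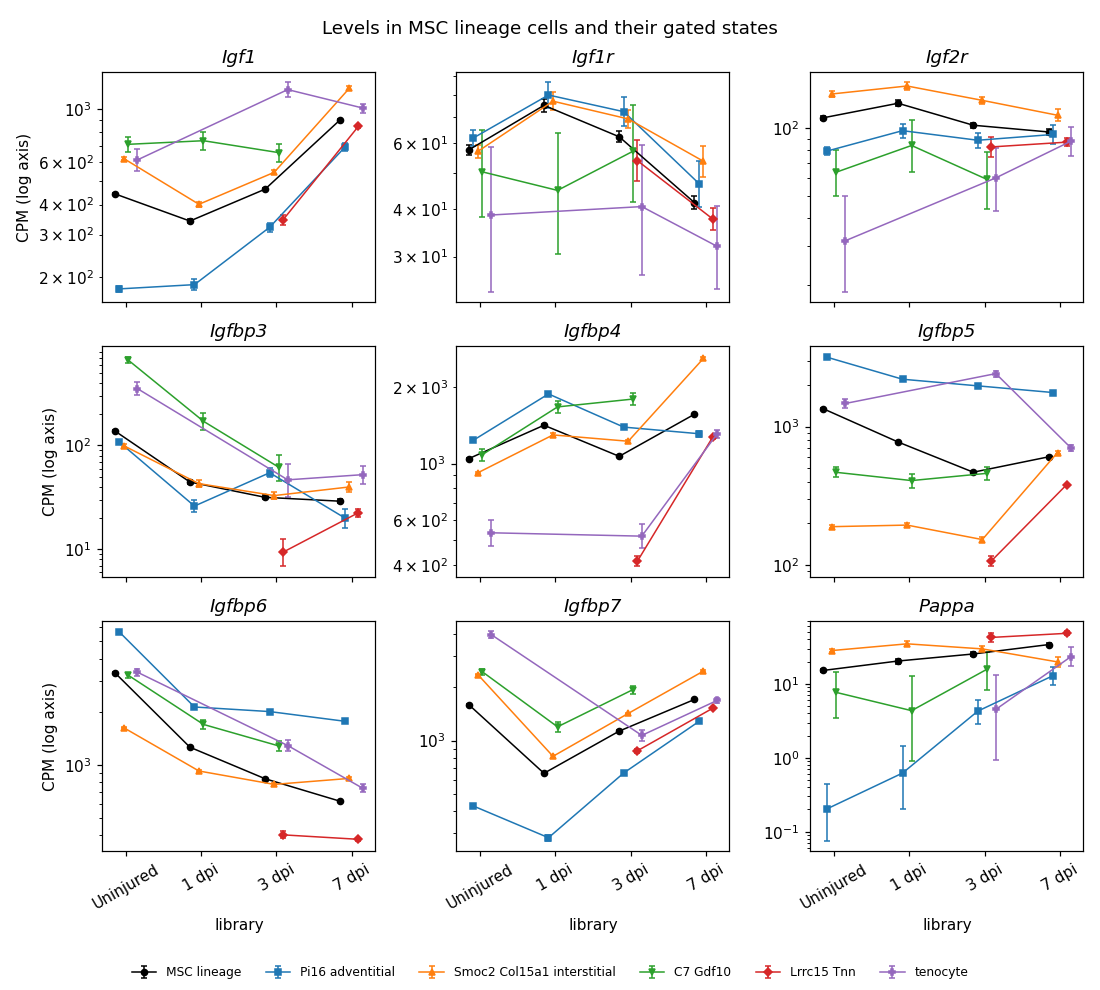
Level of 9 members (CPM, log axis) in MSC lineage cells and in their gated states, by library (x axis), with exact 95% Poisson intervals; groups under 50 cells and the 0 values are not drawn, and lines join the libraries of a state for reading only. *Igfbp5* and *Igfbp6* are highest in the *Pi16* state in Uninjured, where *Igf1*, *Igfbp7* and *Pappa* are lower in it than in the interstitial state.

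*Pappa* (ENSMUSG00000028370, chromosome 4, 65124174 to 65357509, forward strand), the protease, was at 15.2, 20.4, 25.4 and 34.0 CPM in MSC lineage cells, and 7 dpi was 2.24-fold above Uninjured (2.08 to 2.41). In Uninjured it had 6 UMIs in 3022 cells of the *Pi16* state and 1127 UMIs in 4436 cells of the interstitial state, or 0.205 and 28.2 CPM, a 138-fold difference (95% interval 63.2 to 377). The interstitial state was at 28.2, 34.8, 29.7 and 19.8 CPM over the 4 libraries, and the *Pi16* state was at 0.205, 0.622, 4.28 and 12.9 CPM. Cells with *Lrrc15* and *Tnn*, genes of fibroblasts that lay down matrix, numbered 247 and 2832 at 3 and 7 dpi and held 42.5 and 48.3 CPM. At 7 dpi this was 2.44-fold the interstitial level (2.07 to 2.88), and of 10 members tested between these states it was the 1 that was higher, while *Igfbp4* and *Igfbp6* were lower (2.94% and 5.08% of all genes).

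*Igfbp2* (ENSMUSG00000039323, chromosome 1, 72824503 to 72852474, forward strand) had few UMIs in MSC lineage cells before 7 dpi, with 11, 6 and 49 in the first 3 libraries and 756 at 7 dpi. The levels were 0.140, 0.184, 0.914 and 13.0 CPM, and 7 dpi was 14.2-fold above 3 dpi (95% interval 10.6 to 19.4). Even at 7 dpi 3.13% of the cells carried a UMI. The cells with *Lrrc15* and *Tnn* held 14.7 CPM and chondrocytes 9.47 CPM in that library, and B cells, NK cells and satellite cells held 0 UMIs there. At 3 dpi 200 satellite cells held 87 UMIs, 40.2 CPM (32.2 to 49.6), in 24 cells, and 5 of them carried 63.2% of these UMIs. Of the 285 *Igfbp2* UMIs of all cells kept at 3 dpi, 129 (45.3%) lay in cells without a class, 14 in myoblasts and 49 in MSC lineage cells. Satellite cells of the other libraries had 0 UMIs of it, and 3 UMIs, the limit taken for a count of 0, would have been at most 5.87 CPM in them.

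Chondrocytes, gated on *Col2a1* and related cartilage genes, were present at 7 dpi only (3087 cells). Compared with MSC lineage cells of the same library, 4 of 10 members were at least 2-fold lower and 0 higher, where 7.78% of all genes were lower and 3.37% higher. *Igf1* was 297 against 902 CPM, 3.04-fold lower (2.95 to 3.13). *Igfbp6* was 187 against 622 CPM and *Igfbp4* 539 against 1561 CPM. *Pappa*, the fourth, was close to the limit at 17.0 against 34.0 CPM. *Igf1r* was nearly equal, at 43.4 (95% interval 40.2 to 46.9) against 41.7 CPM (40.0 to 43.3), with intervals that overlapped. Hypertrophic chondrocytes (356 cells with at least 2 of *Col10a1*, *Ihh* and *Mmp13*) differed from chondrocytes without a UMI of these genes (1791 cells) in 1 of 9 members tested, *Pappa*, which was lower at 9.05 against 18.9 CPM (1.76% of all genes were lower). *Igf1* was 208 CPM in hypertrophic and 339 CPM in the other chondrocytes. All chondrocytes together held 6188 CPM of *Col3a1*, the gene of the free RNA estimate, against 12013 CPM in MSC lineage cells. NK and B cells of this library held 849 and 1346 CPM of it. The chondrocyte levels of *Igf1*, *Igfbp4* and *Igfbp6* lay below the estimate. It is too high if chondrocytes make *Col3a1* themselves, so it cannot show whether these levels were free RNA. The part of free RNA in the chondrocyte levels was not tested.

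The *Lrrc15* and *Tnn* state held 346 CPM of *Igf1* at 3 dpi and 846 CPM at 7 dpi. In this state 5 of 10 members were at least 2-fold higher at 7 dpi (*Igf1*, *Igfbp2*, *Igfbp3*, *Igfbp4* and *Igfbp5*) and 0 lower, where 10.6% of all genes were higher and 4.30% lower. *Igfbp4* showed this with 414 and 1266 CPM, a ratio of 3.06 (2.92 to 3.20). *Igfbp5* had 106 and 379 CPM, and at 3 dpi 5 cells held 45.3% of its UMIs. The cells of this state at 3 dpi were deeper (median 19173 UMIs) than at 7 dpi (median 6648), and the part of depth in these differences was not tested.

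MSC lineage cells with cell cycle genes (107, 102, 834 and 2060 cells) were compared with the other MSC lineage cells of their library. Before 7 dpi they held at least 2-fold less of 2 to 4 members, with *Igfbp6* among these in each library. At 3 dpi 4 of 9 members were at least 2-fold lower in them (*Igfbp3*, *Igfbp4*, *Igfbp5* and *Igfbp6*) and 0 higher, with 9.62% of all genes lower and 6.48% higher. *Igfbp6* was 376 CPM in cycling cells and 1018 CPM in the others, a 2.71-fold difference (2.64 to 2.79). In Uninjured 2 of 9 members were lower (*Igfbp3* and *Igfbp6*, with 13.1% of all genes). At 1 dpi 4 of 8 were lower (*Igf1*, *Igfbp4*, *Igfbp6* and *Pappa*, with 20.7% of all genes). At 7 dpi, where the largest group of cycling cells was found, 0 of 10 were lower (2.10%). The median log2 ratio of all genes tested was -0.25, -0.36, -0.03 and -0.05 in the order of time. *Igf1* was 369, 136, 311 and 529.6 CPM in cycling and 445, 354, 524 and 1013 CPM in the other cells. Cycling cells were deeper than the others, with medians of 14566, 18034, 17695 and 4506 against 9111, 7840.0, 4842 and 3096 UMIs, and the part of depth was not tested.

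Among classes with at least 50 cells, the vessel wall held the highest *Igfbp7* in Uninjured and at 1 and 7 dpi. At 3 dpi MSC lineage cells ranked first (1131 CPM, 1122 to 1140). Pericytes and smooth muscle, with 14 cells at 1 dpi and 15 at 3 dpi, were not ranked in those libraries, so the 3 dpi order leaves them out. Pericytes and smooth muscle cells passed that minimum in Uninjured (107 cells) and at 7 dpi (428 cells). They had 4515 CPM (95% interval 4374 to 4660.1) and 6069 CPM (5979 to 6159.6), above every other ranked class in both libraries without overlap. They also held 2846 and 1089 CPM of *Igfbp5* and 1043 and 490.4 CPM of *Igfbp4*, and these were the 2 of 6 members tested that were at least 2-fold lower at 7 dpi (8.64% of all genes were lower). *Igf1* was the 1 that was higher (25.7% of all genes), from 2 UMIs and 2.34 CPM to 182 UMIs and 63.7 CPM, a ratio of 27.2 (7.42 to 226). Both levels were below the free RNA estimate, at 0.364 and 0.263 times it. At 7 dpi these cells held 3428 CPM of *Col3a1*, against 1346 CPM in B cells. The estimate is too high if they make *Col3a1* themselves, so the part of free RNA in their *Igf1* cannot be read from it. Blood endothelial cells had 792, 436 and 4043 CPM of *Igfbp7* at 1, 3 and 7 dpi, and 7 dpi was 9.27-fold above 3 dpi (interval from 7.88 to 11), with 96.2% of cells carrying a UMI at 7 dpi against 10.4% of B cells (medians 2904 and 1463 UMIs). Over the same 3 libraries the *Col3a1* level of these cells was 68.5, 304 and 2822 CPM, so both genes were higher at 7 dpi, and *Igfbp7* was 78.8, 11.6 and 8.41 times the free RNA estimate. The part of free RNA in the difference was not tested. The 5 highest endothelial cells held 42.3% of its UMIs at 1 dpi and 29.3% at 7 dpi. *Igfbp7* was 1 of 2 members tested in endothelial cells between 3 and 7 dpi, where 10.8% of all genes were higher.

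**Figure D4:**
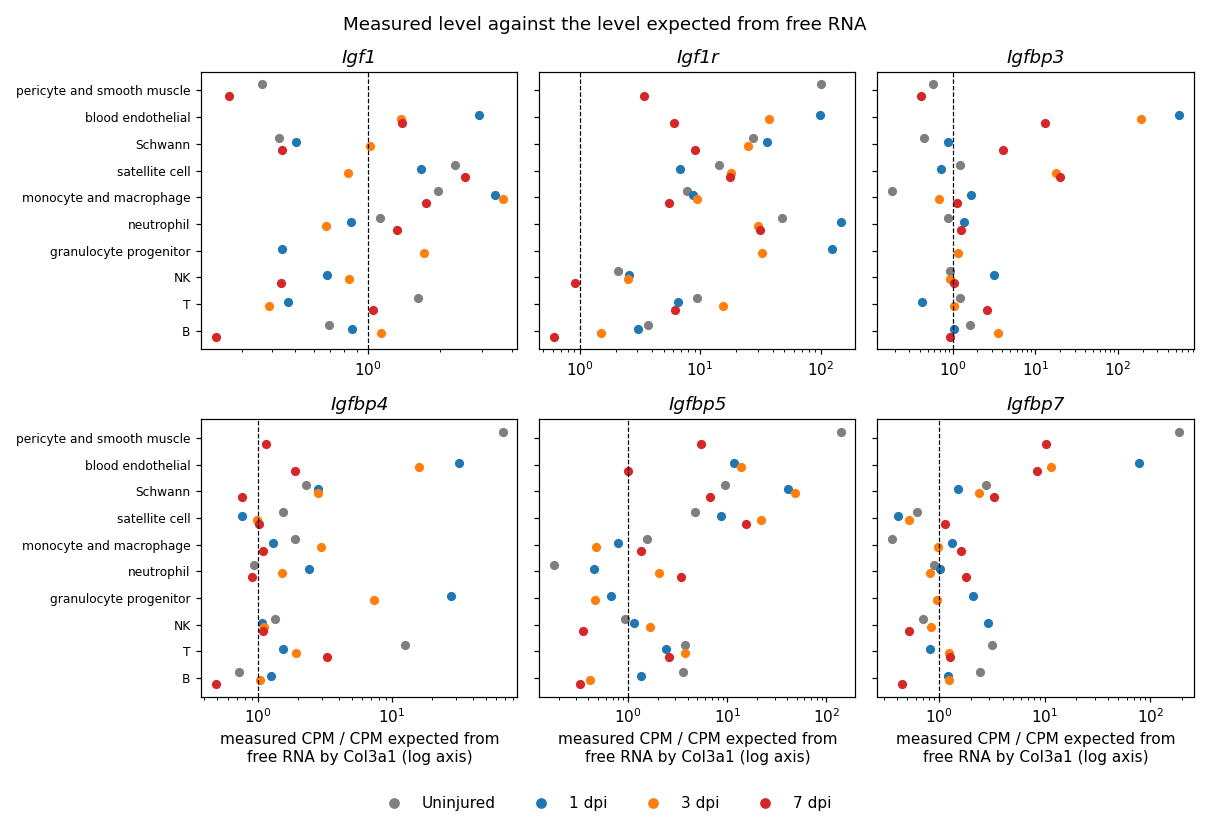
Measured CPM divided by the CPM expected if the class only held free RNA of its library, estimated from *Col3a1* (x axis, log scale; the dashed line is 1), for 6 members in 10 classes (y axis); each point is a library and groups with 0 UMIs are not drawn. Neutrophils lie between 30.2 and 148 for *Igf1r*, while B and NK cells lie at 1.14 or below for *Igf1*.

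In monocytes and macrophages (263, 1564, 780 and 264 cells) 3 members were tested between Uninjured and 1 dpi and 1 was higher, *Igf2r* (18.5% of all genes), at 6.47, 22.2, 9.56 and 14.8 CPM over the libraries. At 1 dpi B cells stood at 20.3 CPM, and with the B cell level subtracted 0 members passed. The whole B cell level was subtracted, so this run cannot tell free RNA from RNA that B cells make themselves. Between 1 and 3 dpi 2 of 4 were higher, *Igf1* and *Igfbp4*, and *Igf2r* was lower (2.18% and 4.50% of all genes). *Igf1* was 12.8 and 33.2 CPM in these libraries, a ratio of 2.59 (2.04 to 3.28), against 6.70 and 15.9 CPM in B cells. After thinning 0 members passed at this step or between Uninjured and 1 dpi. At these levels thinned cells of this class hold too few UMIs for a member to count as tested. The thinned run therefore cannot show whether these differences depend on depth. The class also differed in make-up, with 861 classical monocytes and 310 macrophages at 1 dpi and 166 and 442 at 3 dpi. In macrophages alone 2 of 2 members tested were higher at 3 dpi than at 1 dpi (3.60% of all genes). In classical monocytes alone 0 of 1 passed in either direction (10.5%). The part of make-up in the differences of the whole class was not tested. Between 3 and 7 dpi *Igfbp7* was the 1 member tested in the whole class and was higher (1.22% of all genes), from 21.6 to 138 CPM. At 7 dpi 5 cells held 72.0% of its UMIs. Its log2 ratio of 2.67 was 1.16 with no doublets removed. In T cells 1 of 6 members tested was higher at 1 dpi than in Uninjured, *Igf1r* by 3.47-fold (2.08 to 6.13), and 3 were lower, *Igfbp4*, *Igfbp6* and *Igfbp7* (22.4% of all genes passed in either direction, and 1.38% were lower). *Igfbp6* was also lower at 1 dpi in B cells (58.4 to 24.5 CPM) and NK cells (64.8 to 24.3 CPM). *Igfbp4* was higher in B cells (19.5 to 40.9 CPM, from 10 and 177 UMIs), where 23.1% of all genes were higher and 1.10% lower. *Igfbp7* was nearly equal in NK cells (21.6 to 24.3 CPM). The part of free RNA in the T cell differences was not tested. UMIs held by few cells were common for the binding proteins in lymphocytes and neutrophils, as 5 T cells held 91.0% of the *Igfbp5* UMIs of T cells in Uninjured and 5 neutrophils 91.8% of those at 3 dpi. Cells gated as mast cells at 7 dpi (113 cells) had 536 CPM of *Igf1* and 365 CPM of *Igfbp6*, 0.975 and 0.982 times the free RNA estimate, with 7798 CPM of *Col3a1* itself. Their 10 genes of largest fold included the mast cell protease genes *Mcpt4*, *Cma1*, *Tpsb2* and *Cpa3*, and also *Cldn5* and *Ptprb*, genes of endothelial cells.

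Of 22 other genes of the axis, 18 could be tested in MSC lineage cells between Uninjured and 1 dpi, where 3 were lower and 1 higher (of all genes 3.78% and 5.43%). The ligand *Igf2* was 19.1, 4.66, 4.12 and 53.2 CPM over the libraries, 4.10-fold lower at 1 dpi (3.46 to 4.87). The protease *Pappa2*, a relative of *Pappa*, was 12.7, 2.88, 1.96 and 1.98 CPM, and *Stc2*, whose product inhibits both proteases, was 4.10, 0.613, 1.66 and 3.74 CPM. *Irs2*, the adaptor that couples the receptor to PI3 kinase, was the gene that was higher, at 76.1, 159, 82.5 and 47.6 CPM. The 4 genes in all became 2 after thinning and 8 with the B cell level subtracted. Between 1 and 3 dpi 0 of 16 passed 2-fold in either direction (9.65% of all genes). Between 3 and 7 dpi 2 of 18 were higher (7.90% of genes), *Igf2* by 12.9-fold (11.2 to 14.9) and *Stc2* by 2.26-fold, and 1 was lower (6.40%), the transcription factor *Foxo1*, at 59.7, 67.9, 43.4 and 19.6 CPM. With every cell given equal weight, or after thinning, the split was 1 higher and 4 lower, and with the B cell level subtracted it was 6 higher and 1 lower. For these alternative runs, here and at 1 dpi, the share of all genes is not given, so the counts cannot be set against it. *Igfbp1*, the neighbour of *Igfbp3* on chromosome 11 at 3539 bases, had 0 UMIs in MSC lineage cells of all libraries.

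From Uninjured to 7 dpi 2 of 18 of these genes were higher, *Igf2* and *Grb10*, and 4 lower, *Pappa2*, *Pik3r1*, *Foxo1* and *Lrp1*, where 13.7% of all genes were higher and 10.6% lower. *Grb10*, whose product restrains signalling by the insulin and IGF1 receptors, was 105, 94.5, 153 and 251 CPM. *Pik3r1*, a regulatory subunit of PI3 kinase, was 159, 180.5, 116 and 58.9 CPM and *Lrp1*, an endocytic receptor, 672, 641, 533 and 336 CPM. The receptor genes *Insr* and *Ghr*, for insulin and growth hormone, were 15.9, 19.0, 11.3 and 13.0 and 45.2, 42.2, 28.4 and 34.5 CPM. In chondrocytes at 7 dpi 2 of 18, *Irs1* and *Stc2*, were higher than in MSC lineage cells and 0 lower (3.37% and 7.78% of all genes), at 74.8 against 34.6 CPM and 8.75 against 3.74 CPM.

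The genes whose level ran most alike with each member were found by the Pearson correlation of log2(CPM + 10) over the 47 groups of a class and a library with at least 50 cells. The groups share libraries and free RNA, so the values are descriptions. For *Igf1* they were *Fndc1* (0.93), *Ssc5d* (0.91) and *Mmp2* (0.91), and for *Pappa* *Itga11* (0.91), *Pitx1* (0.91) and *Ccbe1* (0.90). *Igfbp6* ran with *Mfap5* (0.91), *Dcn* (0.91), itself a gating gene, and *Clec3b* (0.91). *Igfbp3* was nearest to *Ramp2* (0.89), *Bvht* (0.88) and *Fmo1* (0.87), *Igfbp5* to *Sspn* (0.92), *Kirrel* (0.92) and *Cavin3* (0.91), and *Igfbp7* to *Tgfb1i1* (0.92), *Copz2* (0.89) and *Mfge8* (0.89). The values were lower for *Igfbp4*, led by *Fstl1* (0.84), *Tshz2* (0.83) and *Tfpi* (0.82), for *Igf1r*, led by *Zfp523* (0.84), *Npepps* (0.82) and *Agap1* (0.82), and for *Igf2r*, led by *Airn* (0.83), *Ttc28* (0.79) and *Rbfox2* (0.78). *Airn* overlaps *Igf2r* on the other strand, and whether the counting used strand is not given in the sources used here, so reads of the pair may not be told apart. *Igfbp2* had at least 100 UMIs in 2 groups only and was left out.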

How the data were processed

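Per the labels, cells were released from pooled tibial muscle with collagenase and captured by droplets. The authors deposited raw UMI counts per gene and barcode, made with Cell Ranger 5.0.0 on mm10 (Seurat 3.1.1 is also named in the submitters' processing notes). The counting settings for strand and introns are not given in the sources used here. Depth ranged from 91146335 to 129007669 UMIs a library. Here barcodes over 2 SD of the library mean in log UMIs or genes, or over 10% mitochondrial UMIs, were left out, and the 7.5% with the highest Scrublet (scanpy 1.11.5) doublet score were removed, since the automatic threshold called 0 in 2 libraries. This kept 9641 to 20301 cells. A class needed 3 detected markers and a lead of 0.1 in marker share, and states were gated alike within MSC lineage cells. The members, gene lists and gates were chosen with earlier results of these data known. With 1 library a group there was no test, and ratios carry exact binomial intervals (scipy 1.17.1). Genes with at least 100 UMIs in the higher group counted as tested. The named genes were all 10 members, the other axis genes past 2-fold and the 3 most alike genes each. Gene positions are from GENCODE M21 (99.6% of genes matched). Scripts were tested on simulated data. Alternatives changed cell filters, weighting, thinning, subtraction of the whole B cell level, the UMI minimum and the fold.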

Additional observations from a re-analysis of the deposited data

Results flagged for a closer look

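*Igfbp4* moved in opposite directions in 2 lymphocyte classes between Uninjured and 1 dpi, with a log2 ratio of 1.07 in B cells (19.5 to 40.9 CPM) and -1.40 in T cells (264 to 99.9 CPM). *Igfbp5* moved in opposite directions in neutrophils and B cells between 1 and 3 dpi, with a log2 ratio of 4.26 in neutrophils (5.28 to 101 CPM) and -1.98 in B cells (26.1 to 6.62 CPM). In neutrophils at 3 dpi 5 cells held 91.8% of the *Igfbp5* UMIs. In B cells *Igfbp4* had 10 UMIs in Uninjured and 177 at 1 dpi, and *Igfbp5* had 113 at 1 dpi and 5 at 3 dpi. Of all genes tested in B cells, 23.1% were at least 2-fold higher at 1 dpi than in Uninjured and 1.10% lower. Their median log2 ratio was 0.58. Between 1 and 3 dpi 5.75% were lower and 1.38% higher. Each group was 1 library, so neither difference between classes was tested. The part of free RNA in the B cell levels was not tested either.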

How the results depend on the processing

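The counts under alternative runs are given without the share of all genes under the same run. They show how the calls moved, and cannot be set against all genes. In MSC lineage cells the count of 3 members lower at 1 dpi was 3 under each alternative run except at 1.5-fold, where it was 4. The members past the threshold between 1 and 3 dpi went from 0 to 1 with a minimum of 30 UMIs and to 3 at 1.5-fold, and between 3 and 7 dpi from 1 to 3 at 1.5-fold. In monocytes and macrophages the 1 member at 1 dpi against Uninjured became 0 after thinning, with B cells subtracted or with at least 300 UMIs, and 2 with at least 30 UMIs or at 1.5-fold. The 3 members at 3 dpi against 1 dpi became 0 after thinning or with at least 300 UMIs, and the 1 at 7 dpi against 3 dpi became 0 under both and 2 with at least 30 UMIs. Thinned cells and the higher minimum leave fewer genes with enough UMIs, so a 0 there does not show that a difference was absent. Of the other axis genes in MSC lineage cells, the 4 at 1 dpi became 2 after thinning and 8 with B cells subtracted. The 0 at 3 dpi became 1 without a cell filter or with at least 30 UMIs, 2 with B cells subtracted and 5 at 1.5-fold. The 3 at 7 dpi became 5 with equal weight per cell or after thinning, 7 with B cells subtracted and 10 at 1.5-fold. The cause was not tested. Among 252 values of single members under alternatives, 133 stayed in the main 95% interval and 119 did not, 201 moved by at most 0.25 (log2), the largest shift was 5.30 (log2), for *Igfbp4* in monocytes and macrophages at 3 dpi against 1 dpi with B cells subtracted, and 8 changed sign, of which 0 belonged to a difference past 2-fold. No paired analysis was possible because each group holds 1 library, and no replicate could be left out.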
